A study of Mus musculus with 8 samples.

Results

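The autophagy and lysosome genes described here are 38 genes that were listed by name and that cover autophagy from its start to the lysosome in which it ends. The rule for the members uses no measured value, but the list was drawn up with earlier results of these data known. They were measured in E18.5 mouse hearts of 2 genotypes, with 4 hearts labelled WT and 4 labelled SIRT1 KO, with 1 heart on each one-color Agilent array of the mouse genome. WT embryos are wild type, and SIRT1 KO embryos are Sirt1-/- through the germ line in every tissue, not in cardiomyocytes alone. All are C57BL/6 embryos per the labels, C57BL/6J in the methods, from crosses of heterozygous parents kept on a chow diet with no other treatment, and hearts of both sexes were collected. For 36 of the 38 genes at least 1 probe carried an accession of the gene, and no probe was matched to *Atg9a* or *Rab7*. These 36 genes, of 19096 genes with a named probe, have 58 of the 41174 probes, and 55 of the 58 were tested because 4 or more of the 8 arrays showed them well above background. All 55 were above background on all 8 arrays.

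Macroautophagy encloses cytoplasm, protein aggregates and worn organelles in a double membrane, the autophagosome, which fuses with the lysosome for digestion of its content. The ULK kinase complex and the class III PI3-kinase complex start the membrane, ubiquitin-like conjugation attaches ATG8-family proteins to it, and cargo receptors tie selected cargo to the ATG8 proteins. Cardiomyocytes divide little after birth and rely on this clearance, autophagy is induced in the newborn heart when the placental nutrient supply stops, and loss of LAMP2 causes a vacuolar cardiomyopathy. SIRT1, an NAD+-dependent deacetylase, is known to deacetylate ATG5, ATG7 and LC3, changes of the proteins that an array of RNA does not measure.

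Before the members, the labels and slides were checked. Each genotype has a slide and a scan day of its own, so these cannot be told apart from genotype. *Sirt1* itself was not lower in the hearts labelled SIRT1 KO. On its brighter probe the log2 signal was -0.14, 0.32, 0.00 and 0.00 in WT hearts and 0.64, 0.50, 0.43 and 0.75 in hearts labelled SIRT1 KO, which do not overlap (log2 fold change 0.54, SE 0.11, limma adjusted p = 0.0323). This call was kept in 2 of the 8 fits with a heart left out, where that heart was WT replicate 2 or SIRT1 KO replicate 3, and was lost with the replicate block, with median scaling, without scaling, without a filter and in the methods' analysis of variance. The dimmer probe gave -0.11 (limma adjusted p = 0.589). Genotypes are therefore named as labelled, and where these probes lie in the transcript was not analysed here. All 16 cardiomyocyte markers were above background. On the brightest probe 0 of them passed an adjusted p of 0.05 from limma, where 4.62% of all genes passed. At an unadjusted p under 0.05 from limma there were 3, all higher, where the share over all genes was 20.4%. In the fold change 11 were above 0 and 5 below, from -0.33 for *Nppa* to 0.47 for *Ttn*. A dimmer *Myh7* probe passed (log2 fold change 0.36, limma adjusted p = 0.0283), where 4.91% of all probes passed. The summed signal of the 15 of 16 macrophage markers measured was 7.23 to 10.8 times the 75th percentile in WT hearts and 6.53 to 10.6 times in hearts labelled SIRT1 KO, and *Timd4* was not tested. Within that list 7 markers were above 0 and 8 below on the brightest probe, and 0 passed the threshold. An unadjusted p under 0.05 from limma was found for 4 of the 15, where the share over all genes was 20.4%. These were *Cd68* at 0.64, *Mrc1* at -0.41, *Folr2* at -0.56 and *F13a1* at -0.36. Only *Cd68* did not overlap between the genotypes, where 14.0% of all genes did not. Of the 10 endothelial markers 2 were above 0 and 8 below (median -0.10), with 0 past the threshold, and the summed signal of the 9 with a value in every heart (not *Robo4*) was 52.2 to 57.2 in WT hearts and 46.1 to 54.8 in hearts labelled SIRT1 KO, which overlap. The 7 of 10 hepatocyte markers measured were all above 0 in the fold change (median 1.32) with 0 past the threshold, and their summed signal was 11.3 to 27.5 in WT hearts and 117, 18.6, 13.3 and 61.8 in SIRT1 KO replicates 1 to 4. The part of these marker lists in the results below was not tested.

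The first comparison asked whether RNA of these genes differed between the genotypes. Every level below is the log2 intensity of a probe minus the 75th percentile of its array, and every log2 fold change is the SIRT1 KO mean minus the WT mean. None of the 55 member probes passed an adjusted p of 0.05 from limma, where 4.91% of all 25624 probes tested passed. With 1 probe per gene, the one with the highest mean signal, 0 of the 36 genes passed against 4.62% of all 13600 genes, and the smallest adjusted p from limma was 0.184, for *Ctsb*. At an unadjusted p under 0.05 from limma there were 5 of 55 member probes, 3 with SIRT1 KO above WT and 2 below, where the share over all probes was 21.5%. The methods' analysis of variance also gave 5 at that level and 0 after Benjamini-Hochberg adjustment. In RNA of whole hearts, fewer cells of a type and less RNA per cell cannot be told apart.

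The fold changes of the 36 genes lay on both sides of 0. On the brightest probes 17 genes were above 0 and 19 below, from -0.23 for *Gabarap* to 0.35 for *Tfe3*, with a median of -0.01, which is also the median of all genes tested. The median size of the change without its sign was 0.09 for the members and 0.12 for all genes. Replicate hearts lay close together, with a median SD within a genotype of 0.11 over the members and 0.14 over all genes. The 95% confidence interval of the fold change lay within -0.5 to 0.5 for 34 of the 36 genes and for 10163 of all 13600 genes. The exceptions were *Optn*, with a lower bound of -0.52, and *Tfe3*, with an upper bound of 0.79. The genotypes did not overlap in 2 of the 36 genes on the brightest probe, *Ctsb* and *Tfe3*, where 14.0% of all genes did not overlap, and in 4 of the 55 member probes, where 13.7% of all probes did not.

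**Figure D1:**
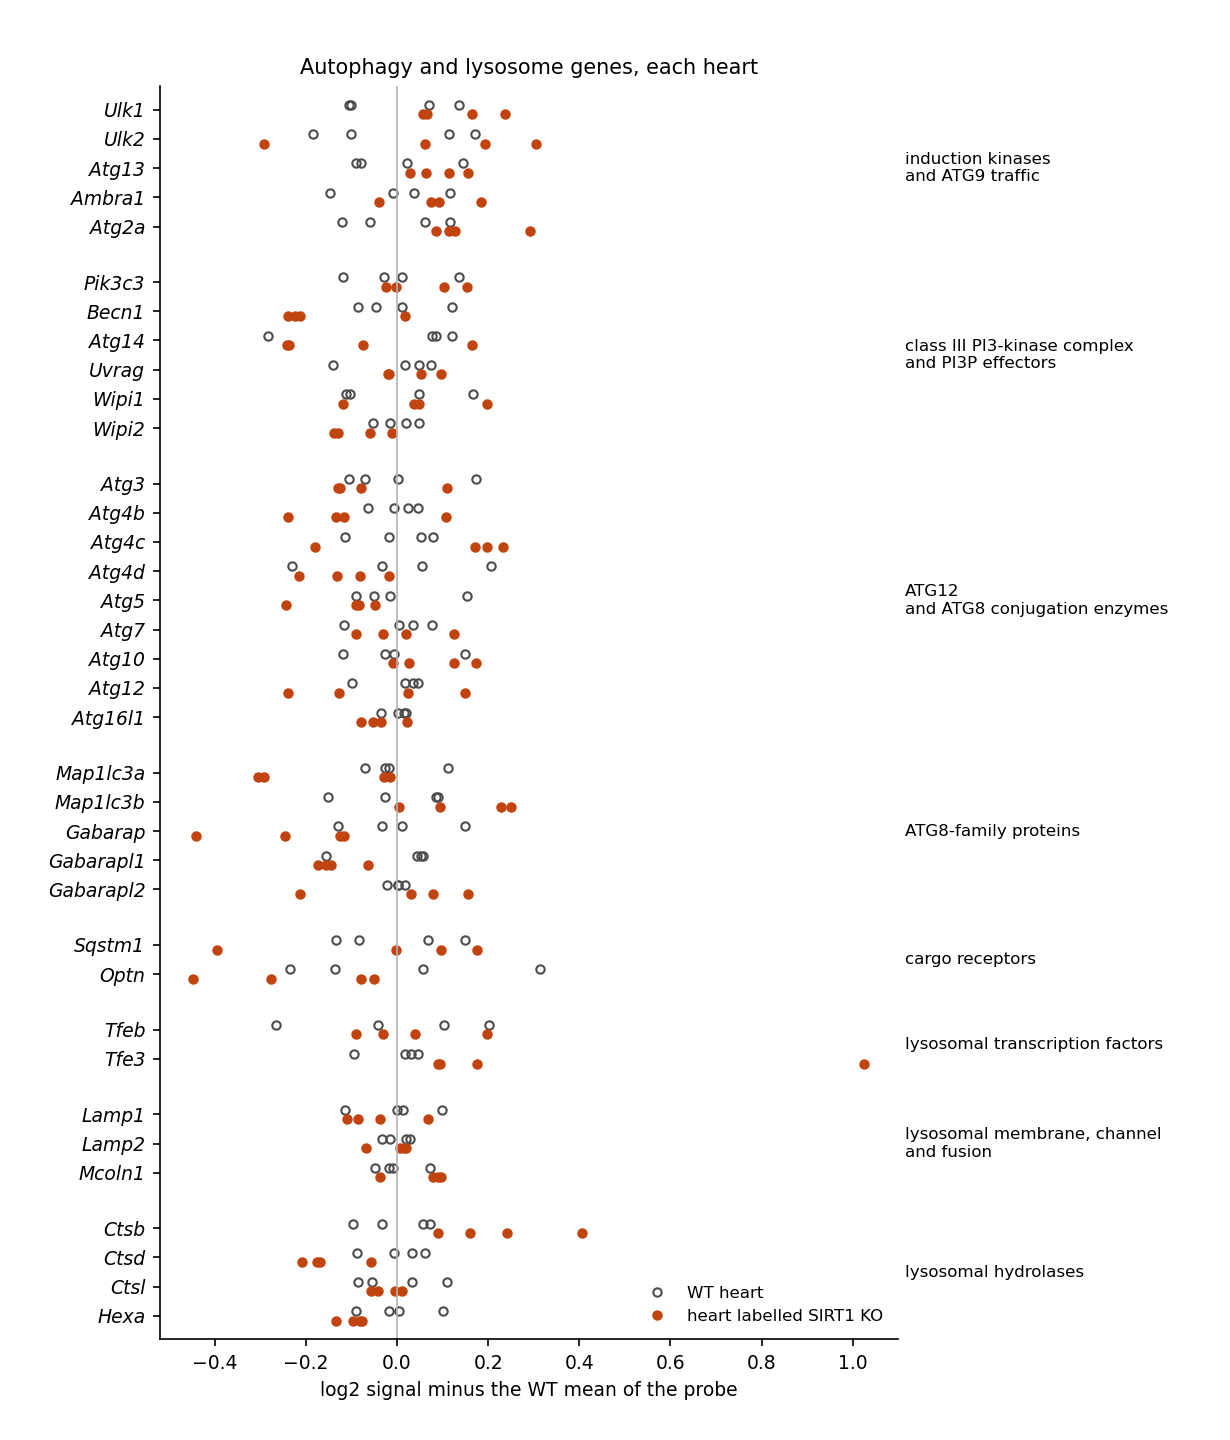
Log2 signal of the brightest probe of each of the 36 genes in each heart, minus the mean of the 4 WT hearts, with WT hearts as open circles and hearts labelled SIRT1 KO as filled circles, in the order of the genes' roles. The circles of the genotypes overlap in 34 of the 36 genes, and the farthest circle is *Tfe3* in SIRT1 KO replicate 2.

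The genes that start autophagy come first. *Ulk1* and *Ulk2* encode the kinases at the head of the pathway, *Atg13* and *Ambra1* encode a partner and a regulator of the kinases, and *Atg2a* encodes a lipid transfer protein that feeds the growing membrane. All 5 were above 0 with none past the threshold, with log2 fold changes of 0.13 for *Ulk1*, 0.07 for *Ulk2*, 0.09 for *Atg13*, 0.08 for *Ambra1* and 0.15 for *Atg2a*. Their adjusted p-values from limma were 0.32 or higher. The levels of *Atg2a* were -0.82, -0.64, -0.76 and -0.59 in the WT hearts and -0.62, -0.41, -0.57 and -0.59 in the hearts labelled SIRT1 KO. WT replicate 4 reached the range of the SIRT1 KO hearts, so the genotypes overlapped even in the gene of this group with the largest change. *Ulk2* varied most within a genotype, from -0.22 to 0.37 among the hearts labelled SIRT1 KO. The group median was 0.09 against -0.01 for all genes with the 75th percentile, and -0.13 against -0.23 without scaling, which moves all genes down together and so fixes the sign of the group.

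*Pik3c3* encodes the lipid kinase VPS34, *Becn1* encodes its partner beclin 1, and *Atg14* and *Uvrag* encode the subunits that send the complex to the forming autophagosome or to endosomes. *Wipi1* and *Wipi2* encode proteins that bind the lipid VPS34 makes. None passed the threshold, and the log2 fold changes were 0.06 for *Pik3c3*, -0.16 for *Becn1*, -0.10 for *Atg14*, 0.03 for *Uvrag*, 0.04 for *Wipi1* and -0.08 for *Wipi2*. *Becn1* had the largest change of these, with WT levels of 1.38, 1.55, 1.44 and 1.34 and SIRT1 KO levels of 1.19, 1.21, 1.45 and 1.20. Of the hearts labelled SIRT1 KO, 3 lay below all WT hearts and replicate 3 lay among them (limma adjusted p = 0.305, exact two-sided permutation p = 0.114). The dimmer *Wipi1* probe gave -0.24 and the dimmer *Atg14* probe -0.27, the lowest fold change of any member probe, with adjusted p-values from limma of 0.270 and 0.474.

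The conjugation enzymes attach ATG12 to ATG5 and ATG8-family proteins to lipid. *Atg7* encodes the activating enzyme of both reactions, *Atg3* and *Atg10* encode the conjugating enzymes, *Atg5*, *Atg12* and *Atg16l1* encode the complex that directs the lipid transfer, and *Atg4b*, *Atg4c* and *Atg4d* encode proteases that trim ATG8 proteins and release them. The log2 fold changes were 0.01 for *Atg7*, -0.06 for *Atg3*, 0.08 for *Atg10*, -0.12 for *Atg5*, -0.05 for *Atg12* and -0.04 for *Atg16l1*. The proteases gave -0.10 for *Atg4b*, 0.11 for *Atg4c* and -0.11 for *Atg4d*. In all, 3 of the 9 genes were above 0 and 6 below, and none passed the threshold. *Atg16l1* was the steadiest member, with an SD within a genotype of 0.04 and levels from 2.70 to 2.76 in WT hearts and from 2.66 to 2.76 in hearts labelled SIRT1 KO. A dimmer *Atg10* probe did not overlap between the genotypes, at 0.21, 0.22, 0.15 and 0.00 in WT hearts and 0.37, 0.28, 0.34 and 0.33 in hearts labelled SIRT1 KO. Its log2 fold change was 0.18 (SE 0.07, limma adjusted p = 0.197, exact two-sided permutation test p = 0.0286, which is the lowest p that 4 hearts against 4 can give), against 0.08 on the brighter *Atg10* probe, whose genotypes overlapped.

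The ATG8 family are the small ubiquitin-like proteins that coat the autophagosome and that receptors bind. *Map1lc3a* and *Map1lc3b* encode LC3 proteins, the usual marker of autophagosomes, and *Gabarap*, *Gabarapl1* and *Gabarapl2* encode the GABARAP proteins that act later, at closure and fusion. *Gabarap* had the lowest fold change of the 36 genes. Its levels were 3.09, 3.05, 2.95 and 3.23 in WT hearts and 2.96, 2.84, 2.97 and 2.64 in hearts labelled SIRT1 KO. The genotypes overlapped, because WT replicate 3 lay below SIRT1 KO replicates 1 and 3, while replicate 4 was the lowest heart. The log2 fold change was -0.23, a ratio of SIRT1 KO to WT of 0.851 (SE of the log2 value 0.10, limma adjusted p = 0.213, exact two-sided permutation p = 0.0857), and the other *Gabarap* probe gave -0.16. *Map1lc3a* gave -0.16, *Gabarapl1* -0.13 and *Gabarapl2* 0.01, none past the threshold. A dimmer *Gabarapl1* probe gave -0.21 (limma adjusted p = 0.232, exact two-sided permutation p = 0.0571).

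The probes of *Map1lc3b* gave fold changes of opposite sign, and the gene was chosen for description after its values were seen. On the brightest probe its levels were 4.33, 4.09, 4.32 and 4.21 in WT hearts and 4.33, 4.24, 4.47 and 4.49 in hearts labelled SIRT1 KO. On the other probe they were 3.81, 3.79, 3.84 and 3.67 in WT hearts and 3.65, 3.60, 3.76 and 3.39 in hearts labelled SIRT1 KO. SIRT1 KO replicate 4 was the highest heart on the brightest probe and the lowest on the other. The log2 fold changes were 0.14 (limma adjusted p = 0.384) and -0.18 (limma adjusted p = 0.307). Their difference within each heart changed by 0.32 between the genotypes without overlap (exact two-sided permutation test p = 0.0286, adjusted p = 0.271 over the 19 pairs of probes compared). Both probes carry the same RefSeq transcript, and neither the probes nor their difference passed after adjustment.

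Cargo receptors bind ubiquitin on cargo and ATG8 proteins on the membrane. *Sqstm1*, which encodes p62, had levels from 4.74 to 5.02 in WT hearts and from 4.48 to 5.04 in hearts labelled SIRT1 KO, with a log2 fold change of -0.03 and an adjusted p of 0.914 from limma. The WT range lay inside that of the hearts labelled SIRT1 KO, in which replicate 4 was the lowest. *Optn*, which encodes optineurin, gave -0.21 with overlapping genotypes (SE 0.14, limma adjusted p = 0.405).

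*Tfeb* and *Tfe3* encode related transcription factors that enter the nucleus when nutrients fall and bind E-box sequences with the core CACGTG near the start sites of lysosomal and autophagy genes. *Tfeb* did not differ beyond the spread, with a log2 fold change of 0.03 and levels from -2.83 to -2.36 in WT hearts and from -2.66 to -2.37 in hearts labelled SIRT1 KO. *Tfe3* had the highest fold change of the 36 genes. Its levels were -2.33, -2.36, -2.35 and -2.47 in WT hearts and -2.20, -1.35, -2.29 and -2.28 in hearts labelled SIRT1 KO. The genotypes did not overlap, but 3 of the hearts labelled SIRT1 KO lay just above the WT hearts and replicate 2 stood far above all others. The log2 fold change was 0.35 (SE 0.20, limma adjusted p = 0.343, exact two-sided permutation test p = 0.0286), and without SIRT1 KO replicate 2 it was 0.12. The other *Tfe3* probes were well above background on 2 arrays and on none, and gave no test.

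The E-box core was looked for in the promoters of the members, since *Tfeb* and *Tfe3* are among them. The windows reach from 250 bases before to 50 bases after the start site and were taken from RefSeq sequences of the GRCm38.p6 assembly, which hold a promoter for 32 of the 38 genes. CACGTG, which reads the same on both strands, occurred in 8 of these 32 genes (25%), where 8.09% of all 27025 genes with a promoter hold it. The longer TCACGTG, on either strand, occurred in 6 of the 32 genes against 4.29% of all genes, and TCACGTGA, which contains both, in 3 genes against 1.12%. The 32 genes have 37 promoters, and a gene was counted if any of its promoters held the sequence. The members with the core were *Atg3*, *Atg5*, *Atg7*, *Atg14*, *Ctsd*, *Ctsl*, *Lamp1* and *Mcoln1*, and *Lamp1* held it 4 times. In *Atg7* the window of the match begins at base 114670953, inside the gene, which starts at 114643127. It therefore stands before a start site further downstream. A window is shown for each of the 6 members in which the core stands inside TCACGTGA or begins at -15 or nearer to the start site, on the strand of the gene with the core in capitals.
Mcoln1, chr8:3500463-3500490, + strand: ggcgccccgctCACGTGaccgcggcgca
Ctsd, chr7:142387909-142387936, - strand: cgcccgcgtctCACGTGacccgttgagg
Atg3, chr16:45158747-45158774, + strand: gagagtcgagtCACGTGaggccttaggt
Lamp1, chr8:13159135-13159162, + strand: cgtgaccacatCACGTGcggaacggagc
Atg5, chr10:44268314-44268341, + strand: ggagcgcttgcCACGTGgtcttggtgac
Atg14, chr14:47568419-47568446, - strand: aaacaaaatccCACGTGactggccctga
Counted from the start site to the first base of the core, these lie at -45 in *Mcoln1*, -98 in *Ctsd*, -71 in *Atg3*, -15 in *Lamp1*, -14 in *Atg5* and -1 in *Atg14*. The 8 genes with the core had log2 fold changes from -0.15 to 0.06 with a median of -0.05, with 2 above 0 and 6 below. The 22 measured genes whose promoter lacks it ranged from -0.23 to 0.35 with a median of 0.03. None of either kind passed the threshold, and a match in these windows does not show that a factor binds there.

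Of the proteins in the lysosomal membrane, LAMP1 and LAMP2 line its inner face and *Mcoln1* encodes the calcium channel mucolipin 1. *Lamp1* gave -0.04 and *Mcoln1* 0.06, neither past the threshold. *Lamp2* has 3 tested probes, each assigned to a different RefSeq transcript, and the gene is known for splice forms that differ in their membrane end. On the brightest probe its levels were 4.00, 3.99, 3.94 and 3.96 in WT hearts and 3.90, 3.98, 3.99 and 3.99 in hearts labelled SIRT1 KO. The log2 fold change was -0.01 with a 95% confidence interval of -0.15 to 0.14. The SD within a genotype was 0.04 there, so this is among the most closely measured members. On the second probe the levels were 2.44, 2.45, 2.43 and 2.35 in WT hearts and 2.60, 2.74, 2.74 and 2.49 in hearts labelled SIRT1 KO. All 4 hearts labelled SIRT1 KO lay above all 4 WT hearts, with a log2 fold change of 0.22 (SE 0.08, 95% confidence interval 0.04 to 0.41) and the smallest adjusted p of any member probe, 0.154 from limma. The remaining probe gave 0.00. The brightest and the second probe differed between genotypes by -0.23 within hearts without overlap (exact two-sided permutation test p = 0.0286, adjusted p = 0.271 over the 19 pairs).

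**Figure D2:**
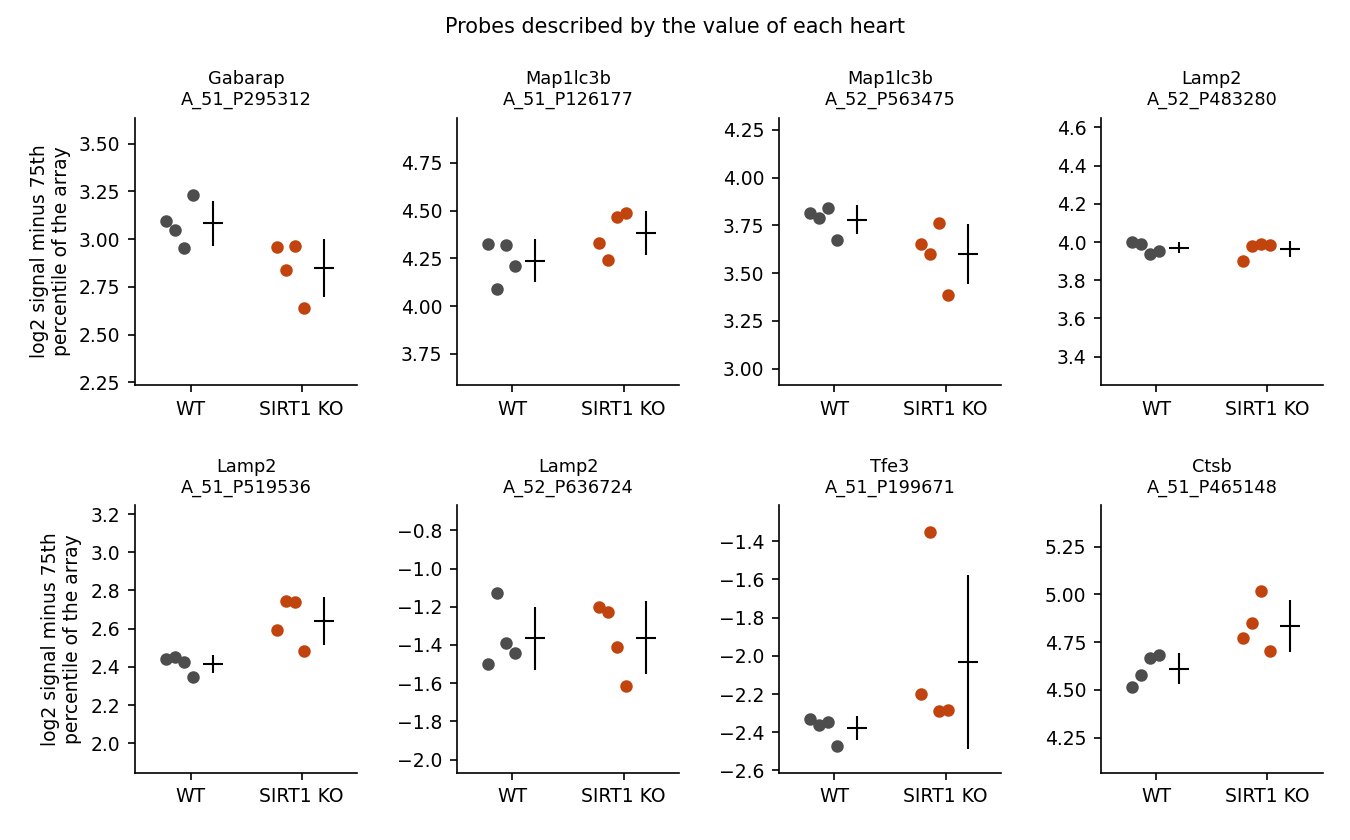
Log2 signal minus the 75th percentile of the array for 8 probes of 5 genes, with 1 point per heart and the mean ± SD of 4 hearts beside the points. Every vertical axis spans the same log2 range. The genotypes are apart for the second *Lamp2* probe, *Tfe3* and *Ctsb*, and the *Map1lc3b* probes lean in opposite directions.

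The hydrolases digest what the autophagosome delivers. *Ctsb* and *Ctsl* encode cysteine proteases, *Ctsd* an aspartic protease and *Hexa* a subunit of the enzyme that degrades gangliosides. The levels of *Ctsb* were 4.52, 4.58, 4.67 and 4.68 in WT hearts and 4.77, 4.85, 5.02 and 4.70 in hearts labelled SIRT1 KO. The genotypes did not overlap, though SIRT1 KO replicate 4 lay just above WT replicate 4. The log2 fold change was 0.22, a ratio of 1.17 with a 95% confidence interval of 1.02 to 1.34 (SE of the log2 value 0.09, limma adjusted p = 0.184, exact two-sided permutation test p = 0.0286). Without scaling, which lowers every gene, it came to 0.00. The dimmer *Ctsb* probe gave 0.08 with overlapping genotypes. *Ctsd* pointed the other way, with WT levels of 4.95, 4.92, 4.80 and 4.88 and SIRT1 KO levels of 4.72, 4.68, 4.71 and 4.84. Replicate 4 was the only heart labelled SIRT1 KO inside the WT range, and the log2 fold change was -0.15 on the brightest probe (limma adjusted p = 0.252, exact two-sided permutation p = 0.0571) and -0.14 on the other. *Ctsl* gave -0.02 and *Hexa* -0.10, neither past the threshold.

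**Figure D3:**
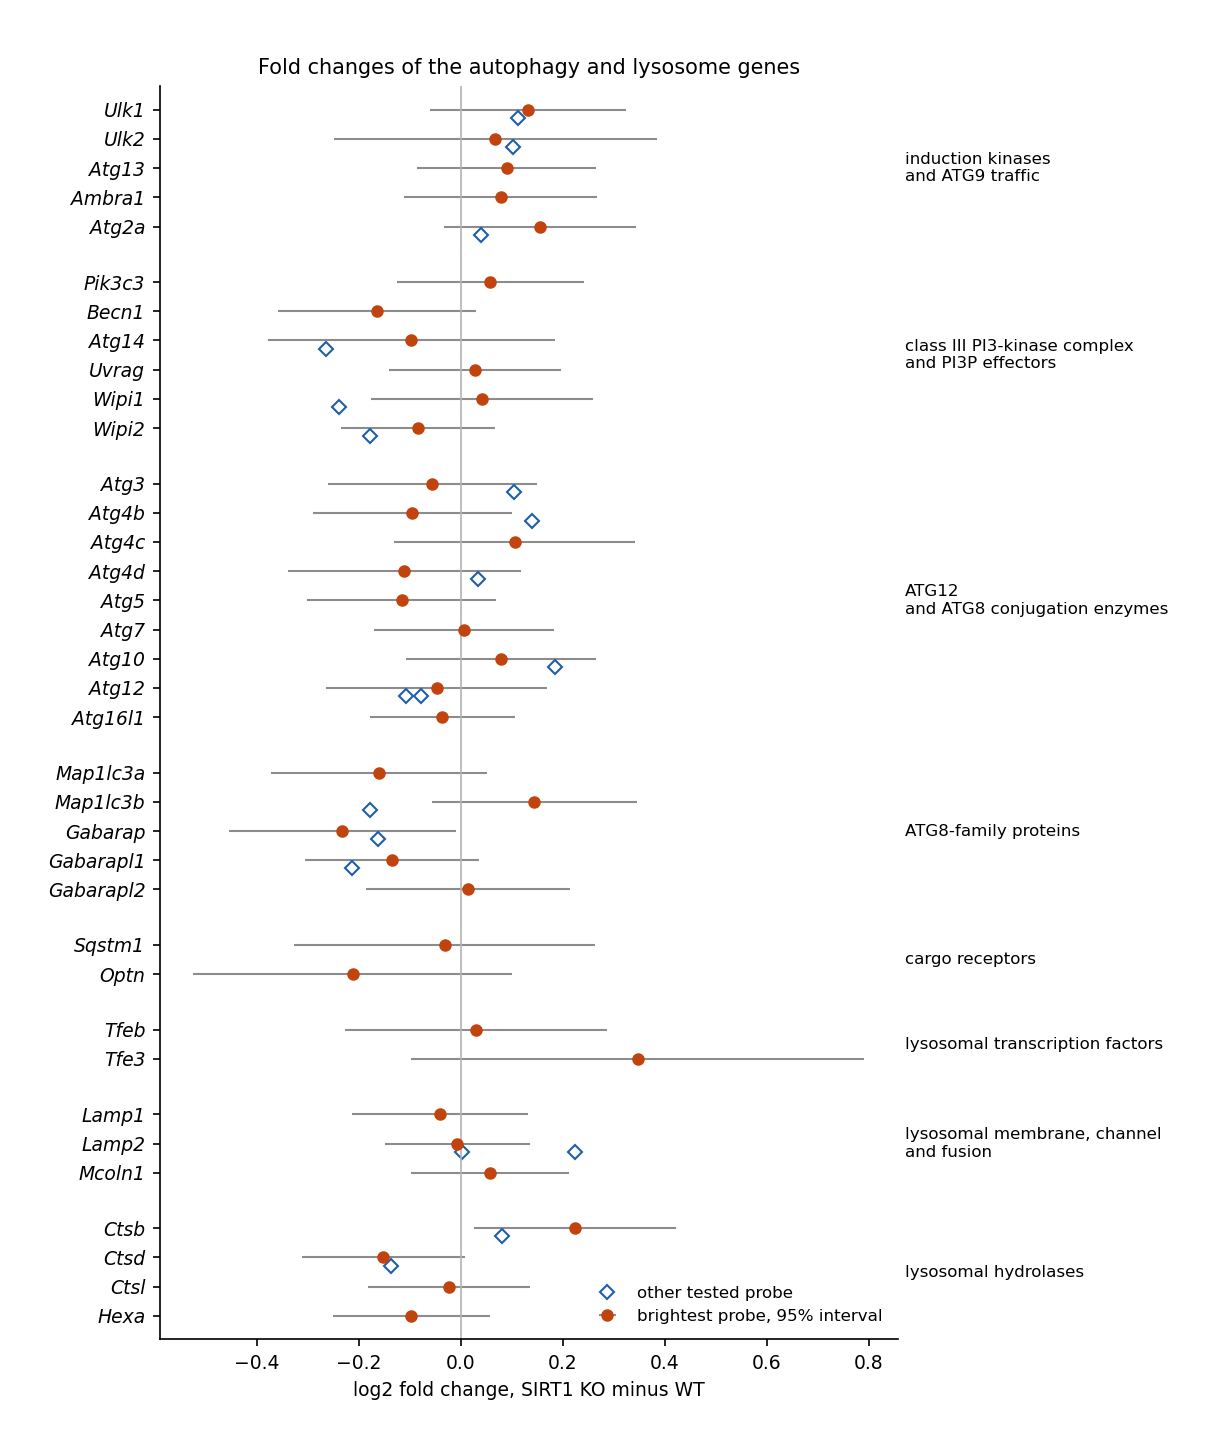
Log2 fold change of the hearts labelled SIRT1 KO against WT for the brightest probe of each gene, as filled circles with the 95% confidence interval from limma, and for every other tested probe of the gene as an open diamond. Intervals of 34 of the 36 genes cross 0, those of *Ctsb* and *Gabarap* do not, and 7 of the 19 diamonds lie on the other side of 0 from the circle of their gene.

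Probes of a gene were set against each other for all 17 genes with more than 1 tested probe, which gave 19 pairs. In 12 pairs both probes had the same sign and in 7 they did not, and the fold changes of a pair differed by a median of 0.10. *Map1lc3b* and *Lamp2* were the genes with a pair that did not overlap between genotypes, and none of the 19 pairs passed after Benjamini-Hochberg adjustment. When each gene was tested on the mean over its probes in place of the brightest probe, 0 of the 36 genes passed, where 5.10% of all 13600 genes did.

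The scaling between arrays set where the fold changes as a whole lay. The 75th percentile of the arrays was 939 to 1033 intensity units in WT and 777 to 906 in SIRT1 KO, which do not overlap. Without scaling, 20 of the 55 member probes (36.4%) passed the threshold as lower in SIRT1 KO and none as higher, where 22.3% of all probes were lower. The 12 genes past the threshold on the brightest probe in that setting were *Becn1*, *Wipi2*, *Atg4b*, *Atg4d*, *Atg5*, *Atg16l1*, *Map1lc3a*, *Gabarap*, *Gabarapl1*, *Lamp1*, *Ctsd* and *Hexa*. The median of the 36 genes was then -0.23, as was that of all genes, and with median scaling it was -0.15 against -0.14 for all genes. The member median minus that of all genes lay between -0.02 and 0.01 under all 6 settings. Median scaling and no scaling lower every gene together, so signs across the 6 settings say nothing about stability.

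**Figure D4:**
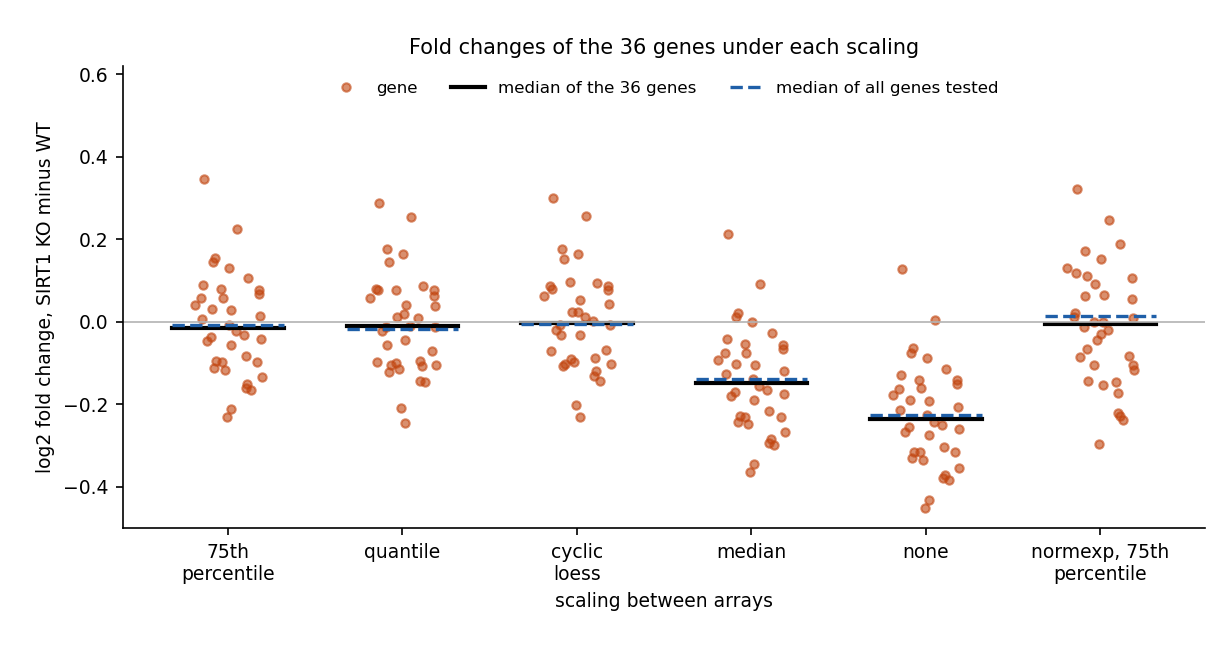
Log2 fold changes of the 36 genes on the brightest probe under 6 ways of scaling or background correction, with 1 point per gene, the median of the 36 genes as a solid line and the median of all genes tested as a dashed line. Both medians are -0.23 without scaling and between -0.02 and 0.01 with the 75th percentile, quantile, cyclic loess and normexp settings.

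A wider list of 141 further genes of autophagy, lysosome and their control was set beside the members, with 138 genes measured. On the brightest probe 75 were above 0 and 63 below, with a median of 0.02, and 17 had an unadjusted p under 0.05 from limma, where the share over all genes was 20.4%. *Calcoco1*, which encodes a receptor related to the cargo receptors, was the only 1 of the 138 past the threshold, where 4.62% of all genes passed. Its levels were -1.57, -1.81, -1.52 and -1.71 in WT hearts and -0.85, -1.22, -1.30 and -1.22 in hearts labelled SIRT1 KO. All hearts labelled SIRT1 KO lay above all WT hearts, with a log2 fold change of 0.50 (SE 0.11, limma adjusted p = 0.0410), and with 1 of the 8 hearts left out at a time it passed in 1 fit, that without SIRT1 KO replicate 3. With all 8 hearts, *Calcoco1* did not pass after quantile normalization or median scaling, without scaling, without a filter or in the analysis of variance, nor did the *Ctsa* probe described next, which cyclic loess also left outside. Over all 215 probes of the list, a dim probe of *Ctsa*, which encodes the protective protein of lysosomal galactosidase, also passed. Its levels were -2.12, -2.41, -2.24 and -2.47 in WT hearts and -1.24, -1.64, -1.84 and -1.86 in hearts labelled SIRT1 KO, without overlap. The log2 fold change was 0.66 (SE 0.15, limma adjusted p = 0.0367) and passed in 3 of the 8 fits with a heart left out, those without SIRT1 KO replicate 1, 3 or 4, while the brighter *Ctsa* probes gave 0.12 and 0.11.

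By function, the measured genes of the wider list divided as follows. None of the 15 further genes of the early machinery passed, with 10 above 0, nor did any of the 21 genes of MTORC1, AMPK and lysosomal gene regulation, with 9 above 0. None of the 40 further hydrolases and activators passed, with 20 above 0 and 20 below, and of these *Lipa*, lysosomal acid lipase, had the smallest adjusted p with 0.0636 from limma (log2 fold change -0.28). None of the 22 genes of the lysosomal membrane and protein sorting passed, with 16 above 0, and none of the 17 genes of the proton pump that acidifies the lysosome, with 7 above 0. Of the 23 genes of receptors, fusion and mitophagy, *Calcoco1* passed and 13 were above 0.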

How the data were processed

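The authors deposited, for each of 8 arrays, the spot intensity that Agilent Feature Extraction wrote with one-color settings, background-subtracted and not scaled between arrays (the methods name an earlier version than the 12.0.0.7 of the file headers), and a series table of intensity values equal to these in 100% of spots. Log2 intensity was taken here, control and outlier spots were left out, every array was set to its 75th percentile and spots of a probe were averaged. Accessions named 28223 of 41174 probes through RefSeq. Probes well above background on at least 4 arrays were tested with limma 3.58.1 in R 4.3.3, Benjamini-Hochberg adjusted over all 25624 probes at 0.05. Tables were made with Python 3.11.15. The fit was tested on simulated data before use. The labels number replicates of a genotype without naming litters. The p-values measure the spread between hearts of a genotype, which share 1 slide and 1 scan day. They hold no spread between slides or days. The members and lists were chosen with earlier results of these data known. Every member was named with its brightest probe, and all hearts were given for member probes past the threshold (there were none), genes without overlap, the largest rise and fall, and the wider genes past the threshold. *Becn1*, *Atg2a*, *Ctsd*, *Map1lc3b*, *Lamp2* and the *Sirt1*, dim *Atg10* and dim *Ctsa* probes were described after their values were seen. Alternatives changed the scaling, the background correction, the filter, the test, the weights of arrays, the probe of a gene and the replicate block, and left out each array.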

Additional observations from a re-analysis of the deposited data

Results flagged for a closer look

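In 7 of the 80 sets of 4 hearts tested, 1 heart stood apart from the other 3 on a member probe by Dixon's test, where chance gives about 1 in 20 sets. The 80 sets come from 40 of the 55 tested member probes in 2 genotypes, and the remaining member probes were not included. Of the 7 sets, 5 were among the hearts labelled SIRT1 KO and 2 among the WT hearts. *Tfe3* was at -1.35 in SIRT1 KO replicate 2, and the next of these hearts was at -2.20. *Becn1* was at 1.45 in SIRT1 KO replicate 3, with the next at 1.21, and in the same heart *Atg4c* was at -1.23, with the next at -0.88. *Mcoln1* was at 2.86 in SIRT1 KO replicate 4, with the next at 2.97, and the brightest *Lamp2* probe was at 3.90 in SIRT1 KO replicate 1, with the next at 3.98. Among WT hearts, *Gabarapl1* was at 4.56 in replicate 4, with the next at 4.76, and *Atg14* was at -0.27 in replicate 1, with the next at 0.09.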

How the results depend on the processing

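No member probe and no member gene passed the threshold with quantile normalization, median scaling, cyclic loess, either filter, the methods' analysis of variance, array weights, an intensity trend, the deposited value table, the replicate block or any of the 8 fits with 1 heart left out. In those 8 fits the median of the member genes was between -0.03 and 0.00. Without scaling, 20 member probes and 12 genes passed, all lower, and 32 wider genes, where 24.8% of all probes did, and the member median was -0.23. With median scaling the member median was -0.15 and 3 wider genes passed, where 7.45% of all probes did. With normexp on the median signal, chosen after seeing the data because the mean signal that was planned is not in the columns of these files and was not run, 1 member probe (a dimmer *Ctsd* probe, lower) and 3 wider genes passed, where 10.6% of all probes did. For the wider list, 1 gene in the main setting, the counts were 0 with quantile normalization (4.11% of all probes), without a filter (2.41%) and with the analysis of variance (2.15%). They were 4 with array weights (8.34%) and 3 on the mean over probes (5.10% of all genes). With a heart left out they were 0 to 2, where 2.58% to 7.13% of all probes passed. The count of 2 came without SIRT1 KO replicate 3, the fit with 7.13%. The *Sirt1* probe passed in 2 of the 8 fits with a heart left out, and not with median scaling, without scaling, without a filter or with the analysis of variance.

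Replicate numbers are shared by the genotypes, but same-numbered hearts correlated at 0.20, 0.21, 0.06 and 0.14, not all above 0.1, so the numbers were not taken as pairs, although each heart correlated best with its own number. With the replicate block, 0 member probes, 0 member genes and 1 wider gene passed, the member median was -0.01, and 1187 probes passed in place of 1257. With the block the brighter *Sirt1* probe no longer passed. All member probes tested were above background on every array, and their number of arrays, 4 per genotype, limits the precision. The cause of these differences was not tested.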
